A study of Mus musculus with 18 samples.

Results

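The alpha-defensins of the Paneth cell were followed in RNA from whole jejunum through 10 listed genes: Defa3, Defa5, Defa17, Defa20, Defa21, Defa22, Defa23, Defa24, Defa26 and Defa30. The genes were matched by symbol, and 10 of 10 were found among the 54532 genes of the deposited count table. Because several of them are near-identical copies, all 39 genes whose symbol starts with Defa were also added up in each library. The libraries came from C57BL/6 mice aged 8 to 12 weeks, with no transgene or deletion named in the labels. A single dose of 15 Gy had been given to the whole abdomen, either at ultra-high dose rate (FLASH, 7 libraries) or at conventional dose rate (CONV, 5 libraries), and jejunum was taken 16 h later; 6 control libraries came from mice that were not irradiated. The labels do not say that each library is a mouse of its own, so a p-value here speaks only to the variation among these libraries.

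Paneth cells sit at the base of the crypts of the small intestine and release antimicrobial granules into the crypt lumen. In mice the alpha-defensins, also called cryptdins, are made as precursors with a signal peptide and a pro-region, and the matrix metalloprotease encoded by Mmp7 cleaves them to the active peptide. Their transcription is known to depend on Wnt signalling through TCF factors. In RNA from whole tissue, fewer Paneth cells and less defensin RNA in each cell cannot be told apart.

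The 10 genes lie on the plus strand of chromosome 8 (mm10), between the start of Defa21 at 21025545 and the end of Defa24 at 21735471. The annotation gives each of them 2 exons, a transcript of 372 to 425 bases and a coding sequence of 282 bases, or 288 bases in Defa20. The reads were 100 bases long, so it was asked which stretches of 100 bases in each transcript occur in no other annotated transcript. Such stretches made up 100% of Defa24, 99.7% of Defa30 and 98.9% of Defa26, whose reads can therefore be assigned. They made up 59.6% of Defa21 and 59.7% of Defa22, and only 13.2% of Defa3, 11.9% of Defa5, 10.9% of Defa23, 9.40% of Defa17 and 0.31% of Defa20. The levels of these last genes depend on how the authors' software divided reads between copies. Among values above 0, between 0 and 20.8% of a library's Defa values were whole numbers (within 1e-06), against 73.3 to 76.9% over all genes.

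The sequences below are the last 120 bases of the coding sequence, 5′ to 3′, from the GENCODE M21 transcripts; this end encodes the mature peptide. They show which members can be told apart. Capitals mark bases that differ from Defa24, or have no partner there, in a global alignment.
Defa24: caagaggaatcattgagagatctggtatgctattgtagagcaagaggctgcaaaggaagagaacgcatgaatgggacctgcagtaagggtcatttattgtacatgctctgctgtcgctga
Defa30: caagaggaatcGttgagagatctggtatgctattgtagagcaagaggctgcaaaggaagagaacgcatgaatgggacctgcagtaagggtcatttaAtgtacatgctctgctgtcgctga
Defa23: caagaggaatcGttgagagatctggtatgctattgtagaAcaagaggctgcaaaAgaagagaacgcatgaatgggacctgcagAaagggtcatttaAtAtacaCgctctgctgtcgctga
Defa3: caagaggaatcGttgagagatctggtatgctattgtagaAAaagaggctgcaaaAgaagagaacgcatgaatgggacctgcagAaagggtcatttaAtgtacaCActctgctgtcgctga
Defa26: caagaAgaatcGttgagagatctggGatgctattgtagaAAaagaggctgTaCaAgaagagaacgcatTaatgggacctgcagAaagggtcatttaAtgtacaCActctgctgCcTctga
Defa5: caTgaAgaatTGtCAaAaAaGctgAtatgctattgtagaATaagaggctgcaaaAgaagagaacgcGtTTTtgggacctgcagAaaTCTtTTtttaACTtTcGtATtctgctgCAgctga
Defa21: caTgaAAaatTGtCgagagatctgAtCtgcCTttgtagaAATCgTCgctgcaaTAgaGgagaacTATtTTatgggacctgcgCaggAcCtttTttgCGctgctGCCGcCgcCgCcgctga
Defa20: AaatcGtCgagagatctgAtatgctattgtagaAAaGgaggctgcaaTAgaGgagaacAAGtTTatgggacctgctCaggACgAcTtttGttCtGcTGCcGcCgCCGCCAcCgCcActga
Only 2 of the 120 bases of Defa30 and 15 of those of Defa26 were in capitals, against 32 in Defa5 and 37 in both Defa21 and Defa20. The coding sequence of Defa17 was identical to that of Defa3 over its whole length, and those of Defa21 and Defa22 were 99.3% identical. The coding sequence of Defa20 was identical to that of Defa32, and that of Defa23 to that of Defa31, neither of which is a listed gene. At 95% coding identity or more, the genes fell into 4 groups that hold more than 1 gene: Defa3, 17, 23, 24, 30 and 31; Defa2, 20, 32 and 33; Defa21 and 22; and Defa5, 34, 35, 36 and 37. Defa26 stood alone, with 92.9% identity to its nearest gene, Defa3.

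RefSeq promoter sequences (GRCm38.p6, plus strand) were at hand for 5 of the 10 genes. The 160 bases before the RefSeq start are shown for 3 of them, with the motif ATCAAAG of TCF factors in capitals. All 10 listed genes fell in both FLASH comparisons, so the fall does not set these 3 apart. Any part of the motif in the fall was not tested.
Defa21 (chr8:21025385-21025544): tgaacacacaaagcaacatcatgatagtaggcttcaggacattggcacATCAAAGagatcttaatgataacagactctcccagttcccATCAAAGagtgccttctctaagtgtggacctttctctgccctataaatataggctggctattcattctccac
Defa23 (chr8:21054880-21055039): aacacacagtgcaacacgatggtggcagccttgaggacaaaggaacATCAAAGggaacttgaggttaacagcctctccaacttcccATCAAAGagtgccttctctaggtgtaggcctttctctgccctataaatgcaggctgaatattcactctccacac
Defa30 (chr8:21134490-21134649): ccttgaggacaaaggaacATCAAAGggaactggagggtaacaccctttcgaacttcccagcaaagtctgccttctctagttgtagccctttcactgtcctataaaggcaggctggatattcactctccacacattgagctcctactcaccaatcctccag
The motif was searched on both strands in windows of the 250 bases before each start. It was present in 5 of 5 member promoters (Defa20, Defa21, Defa22, Defa23 and Defa30) and in 3.21% of the 32851 promoters of the table. At least 2 copies were found in 4 of 5, all but Defa30, against 0.082% of all promoters. The letters TATAAA were in 5 of 5 member promoters and in 12.37% of all. The related motifs TTCAAAG and AACAAAG, the E-boxes CAGCTG and CACGTG, and CCACGTCA, a motif of the unfolded protein response, were in 0 of 5. The promoters of Defa21 and Defa22 were identical over the window and that of Defa20 was 98.0% identical to both, whereas that of Defa30 was 60.7% identical to that of Defa21. The windows were set by the RefSeq starts, and the first ATCAAAG lay 142 bases before the start in Defa30 and 112 in Defa21. The windows of Defa30 and Defa21 are thus out of step, and the part of this in the 60.7% was not tested. A match of letters is a description and no evidence of binding.

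Library totals were 19936095 to 30196611 expected counts. Paneth cell RNA was present in the jejunum samples: Lyz1, the lysozyme of Paneth cell granules, was at 4956 to 7756 CPM in controls (CPM, expected counts scaled to a common library size with TMM factors), and the summed markers of exocrine pancreas, the neighbouring organ, were at 2.43 to 12.8 CPM in all libraries. Libraries differed in how their counts leaned with transcript length, which touches these short transcripts. Short genes were over-represented most in CONV 6, control 6, FLASH 1 and CONV 2. There the slope of log2 CPM on log2 length lay between -0.43 and -0.32, and in the other libraries between -0.21 and 0.32. The lean was not even between groups: the median slope was 0.24 in control, 0.08 in FLASH and -0.21 in CONV. The ranges overlapped (-0.41 to 0.32, -0.34 to 0.27 and -0.43 to 0.04).

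Alpha-defensin RNA was lower in FLASH jejunum than in both other groups. Defa genes together took 2.37 to 4.11% of all counts in the control libraries (median 3.20%). In the CONV libraries they took 0.97 to 2.98% (median 2.12%), and in the FLASH libraries 0.35 to 1.28% (median 0.77%). The summed level was 21821 CPM in the lowest control library, 27971 CPM at the median and 32881 CPM in the highest. The CONV libraries 2, 3, 5, 6 and 7 were at 31086, 21898, 20598, 11540 and 19065 CPM. The FLASH libraries reached from 3947 CPM through a median of 8722 to 15562 CPM. No FLASH library overlapped the controls, while FLASH 1, the highest of its group, lay above CONV 6, the lowest of its group. The CONV libraries spread from within the controls to below them. As 1 feature among all genes, the sum was 3.13-fold lower in FLASH than in control (log2 change -1.64 ± 0.26 SE, adjusted p = 8.3e-05) and 2.35-fold lower in FLASH than in CONV (log2 change -1.24 ± 0.26 SE, adjusted p = 0.0039). The difference between CONV and control (-0.41 ± 0.28 SE, adjusted p = 0.28) did not pass the threshold of 0.05. These adjusted p-values come from the edgeR quasi-likelihood test over 16235 features, the sum standing in for the Defa genes.

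**Figure D1:**
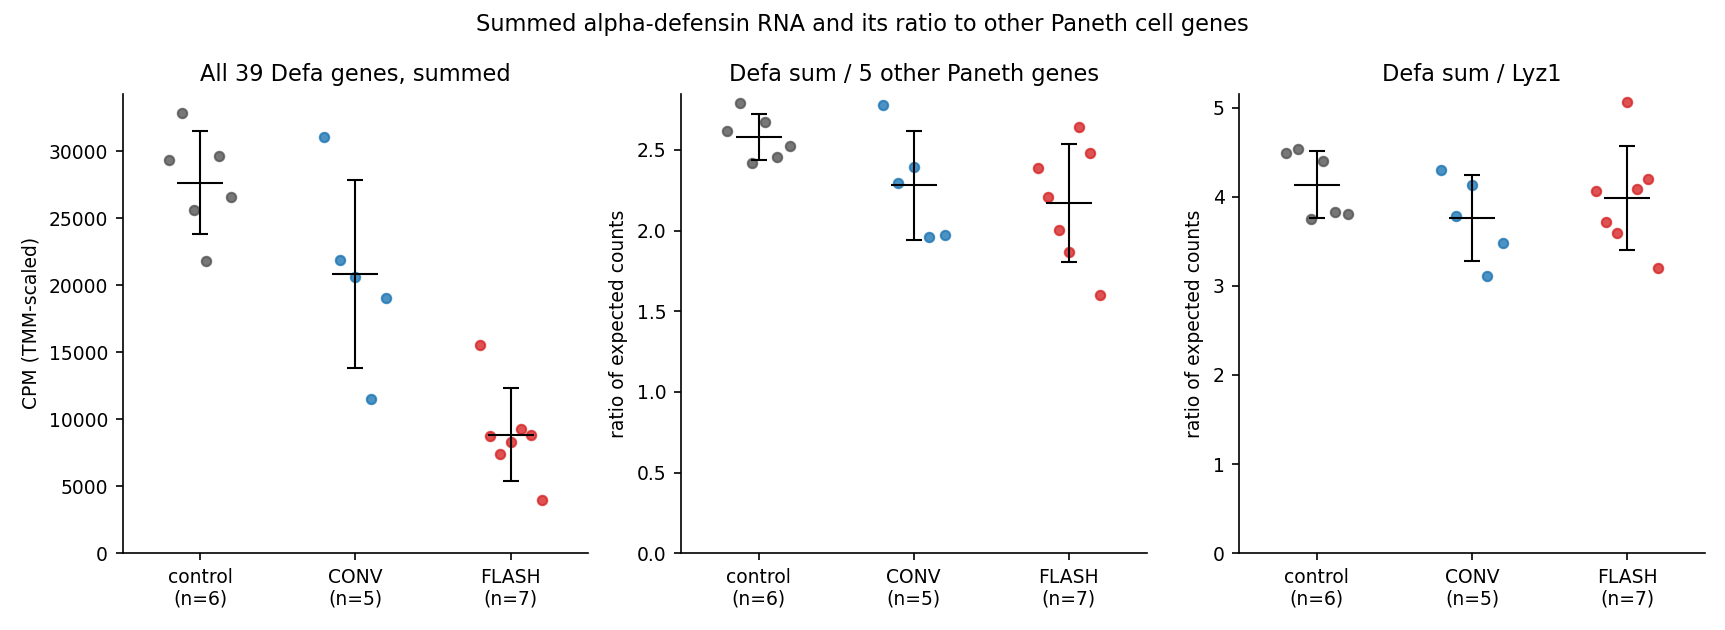
Summed Defa level in CPM (left), its ratio to 5 other Paneth cell genes (middle) and its ratio to Lyz1 (right), each point 1 library, with the mean and SD of the group in black. The FLASH libraries sit at 3947 to 15562 CPM, all below the controls, while the ratio to Lyz1 spans 3.11 to 5.06 with the 3 groups overlapping.

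Of the 10 listed genes, 10 fell in FLASH against control, where 21.0% of the 16257 tested genes passed as lower. In FLASH against CONV, 10 of 10 fell as well, with 9.91% of all genes passing as lower. In CONV against control 1 of 10 fell (Defa26) and 9 did not pass, with 12.0% of all genes passing as lower. The CONV libraries lay wholly below the controls in 2 of 10, Defa23 and Defa26, against 4.95% of all genes. The median log2 change of the 10 genes was -1.79 in FLASH against control, -1.23 in FLASH against CONV and -0.51 in CONV against control, where the medians over all tested genes were -0.07, -0.02 and -0.04. In 9 of 10 genes, all but Defa30, the FLASH libraries lay wholly below the controls, which was so for 6.85% of all genes. In 1 of 10, Defa17, they also lay wholly below the CONV libraries, against 4.45% of all genes. The FLASH and CONV comparisons with control share their control libraries, and both FLASH comparisons share the FLASH libraries, so the 3 are not independent. Nor are the 10 genes independent of each other, since near-identical copies share reads and all were read in the same libraries.

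Counts against CONV moved with the settings. Each library was next corrected for its trend with transcript length and GC content (an offset in the fit). Then 5 of 10 genes passed in FLASH against CONV and 5 of 10 in CONV against control. Of the 16257 tested genes, 2064 and 2792 passed as lower in these comparisons, where 1611 and 1953 did without the offset. Under that offset the sum passed in CONV against control (-0.88 ± 0.28 SE, edgeR adjusted p = 0.029) and no longer passed in FLASH against CONV (-0.71 ± 0.27 SE, edgeR adjusted p = 0.059). In FLASH against control, 10 of 10 genes passed under every alternative run. Of the 16257 tested genes, 3416 passed as lower there in the main fit, 4820 with the offset and 6550 with library totals.

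**Figure D2:**
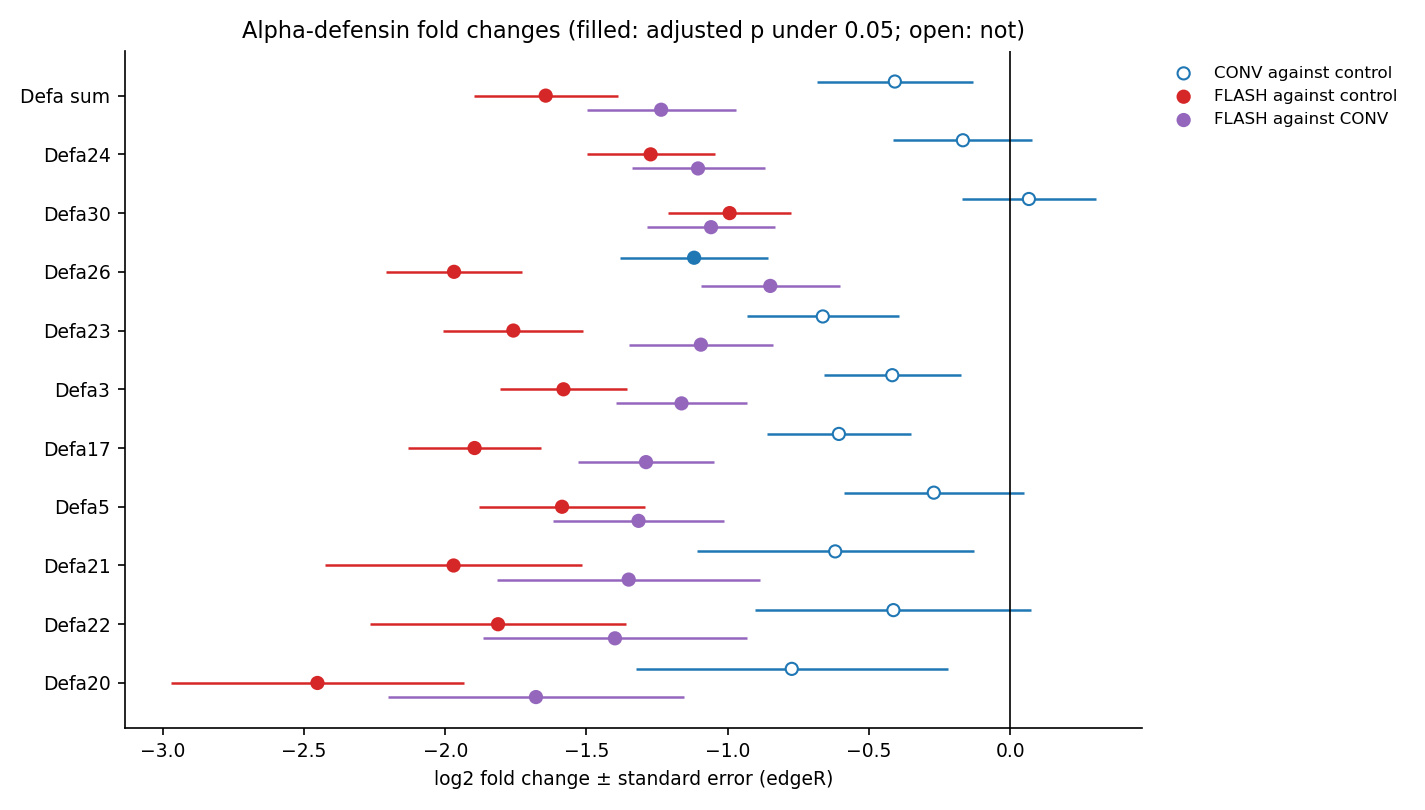
Log2 fold change and standard error (edgeR) of the Defa sum and the 10 genes in the 3 comparisons; filled points have an adjusted p under 0.05. The points of both FLASH comparisons lie between -2.45 and -0.85 for the 10 genes, and those of CONV against control between -1.12 and 0.07.

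Defa24 (ENSMUSG00000064213, chr8:21734494-21735471) was the most abundant listed gene and held 20.6% of all Defa counts. Its levels were 4564 CPM in the lowest control, 5003 at the median and 6418 in the highest. They were 5988, 4320, 4053, 3713 and 5072 CPM in CONV 2, 3, 5, 6 and 7, and 1238 (lowest), 1992 (median) and 4069 CPM (highest) in FLASH. In CONV, 3 of 5 libraries lay below the lowest control and the others within the control range. The FLASH libraries lay below every control but overlapped the CONV range through FLASH 1. Defa24 fell in FLASH against control (-1.27 ± 0.23 SE, edgeR adjusted p = 0.00029) and against CONV (-1.11 ± 0.24 SE, edgeR adjusted p = 0.0039). Its change in CONV against control was -0.17 ± 0.25 SE (edgeR adjusted p = 0.63), and with the length and GC offset it passed (-0.61, adjusted p = 0.024).

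Defa30 (ENSMUSG00000074444, chr8:21134642-21135598), 98.6% identical to Defa24 in its coding sequence, had the smallest change of the 10 in FLASH against control. Controls were at 1542 (lowest), 1886 (median) and 2159 CPM (highest). The CONV libraries, in the order 2, 3, 5, 6 and 7, were at 2435, 1810, 1795, 1521 and 2178 CPM, which spans the control range at both ends. FLASH libraries were at 548 (lowest), 922 (median) and 1711 CPM (highest), and only FLASH 1 reached into the control range. Defa30 fell in FLASH against control (-0.99 ± 0.22 SE, edgeR adjusted p = 0.0016) and against CONV (-1.06 ± 0.23 SE, edgeR adjusted p = 0.0040), and its log2 change in CONV against control was 0.07 ± 0.24 SE (edgeR adjusted p = 0.85).

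Defa26 (ENSMUSG00000060070, chr8:21618183-21618972) was the scarcest of the 10, with 0.25% of all Defa counts. Its control levels were 69.1 (lowest), 76.7 (median) and 98.4 CPM (highest). In CONV 2, 3, 5, 6 and 7 it was at 43.6, 33.2, 31.1, 30.4 and 45.5 CPM, and in FLASH at 11.7 (lowest), 16.2 (median) and 39.9 CPM (highest). All irradiated libraries lay below all controls. Defa26 fell in CONV against control (-1.12 ± 0.26 SE, edgeR adjusted p = 0.0064), a call that all 30 alternatives kept, with adjusted p from 4.9e-05 to 0.023. It fell further in FLASH, against control (-1.97 ± 0.24 SE, edgeR adjusted p = 8.2e-06) and against CONV (-0.85 ± 0.25 SE, edgeR adjusted p = 0.022); the last did not pass with the length and GC offset (-0.38, adjusted p = 0.16).

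The 3 genes whose reads can be assigned thus changed by different amounts, and their ratio within a library does not depend on the scaling between libraries. Defa30 was 21.7 to 28.1 times as abundant as Defa26 in the 6 controls, in CPM. The ratio was 47.8 to 57.7 in the 5 CONV libraries and 42.1 to 56.9 in the 7 FLASH libraries. The irradiated groups overlapped each other and neither overlapped the controls. Defa24 was 55.7 to 71.5 times as abundant as Defa26 in controls, 111 to 137 times in CONV and 89.1 to 124 times in FLASH, again without overlap between controls and either irradiated group. The ratio of Defa24 to Defa30 moved less, from 2.45 to 3.02 in controls to 2.26 to 2.46 in CONV and 2.09 to 2.42 in FLASH. These ratios were singled out after their values were seen and are given without a test. The 3 transcripts are close in length, 419, 398 and 372 bases.

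**Figure D3:**
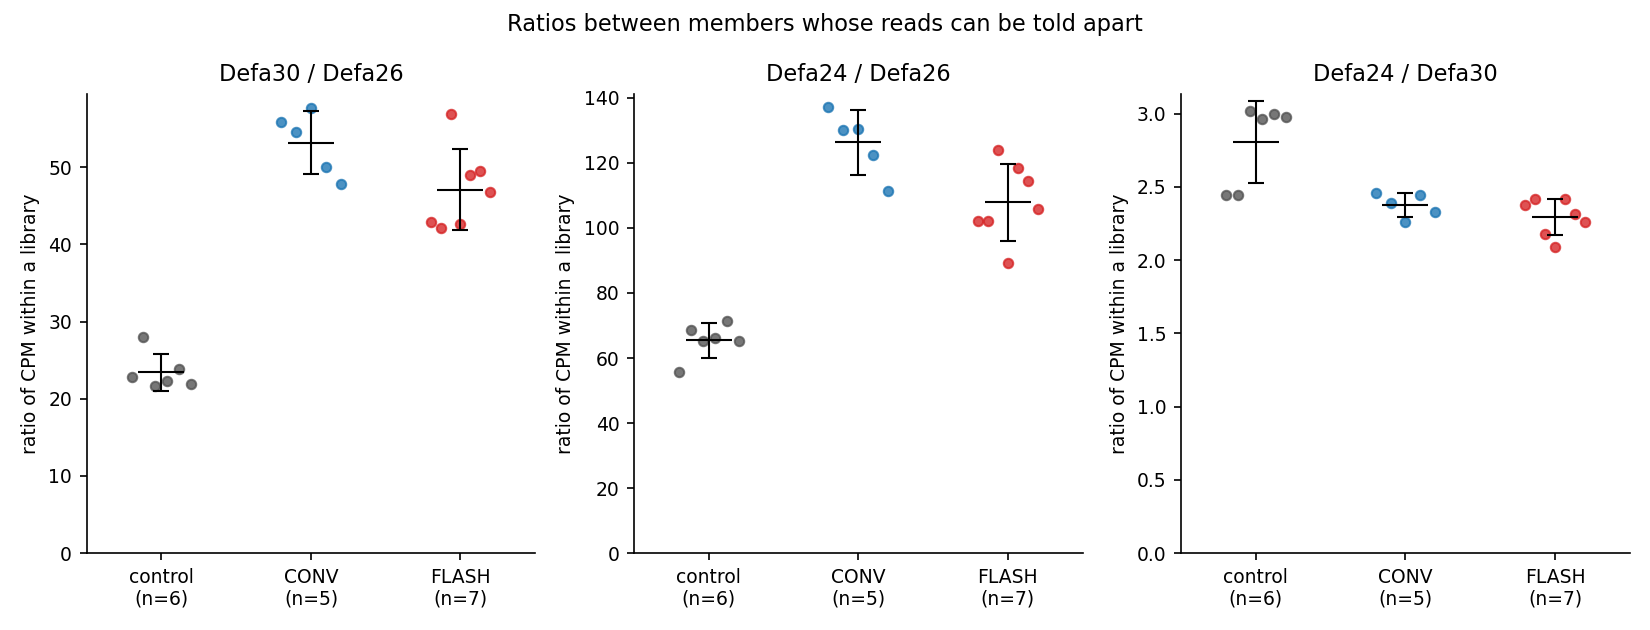
Ratios of CPM within each library between Defa24, Defa30 and Defa26, each point 1 library, with mean and SD in black. The ratio of Defa30 to Defa26 is 21.7 to 28.1 in controls and 42.1 to 57.7 in the irradiated libraries.

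Defa23, Defa3 and Defa17 are close relatives of Defa24 with few bases of their own. Defa23 (ENSMUSG00000074446, chr8:21055047-21056016) was at 2537 (lowest), 2689 (median) and 3894 CPM (highest) in controls. It was at 2143, 1583, 1578, 1381 and 2489 CPM in CONV 2, 3, 5, 6 and 7, and at 542 (lowest), 809 (median) and 1697 CPM (highest) in FLASH. All CONV libraries lay below all controls, although the change of -0.66 ± 0.27 SE (edgeR adjusted p = 0.079) did not pass. It passed in 4 of 30 alternatives, among them the length and GC offset (-1.06, edgeR adjusted p = 0.0011). In FLASH it fell against control (-1.76 ± 0.25 SE, edgeR adjusted p = 3.3e-05) and against CONV (-1.10 ± 0.25 SE, edgeR adjusted p = 0.0065).

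Defa3 (ENSMUSG00000074440, chr8:21287409-21288377) varied least among controls, at 1841 (lowest), 1948 (median) and 2180 CPM (highest). Levels in CONV 2, 3, 5, 6 and 7 were 1949, 1569, 1323, 898 and 1629 CPM, so that 4 of 5 lay below the lowest control. FLASH libraries were at 360 (lowest), 673 (median) and 1043 CPM (highest), below all controls, and FLASH 1 lay above CONV 6. Defa3 fell in FLASH against control (-1.58 ± 0.22 SE, edgeR adjusted p = 3.4e-05) and against CONV (-1.16 ± 0.23 SE, edgeR adjusted p = 0.0026). In CONV against control its change was -0.42 ± 0.24 SE (edgeR adjusted p = 0.21), which passed with the length and GC offset (-0.85, adjusted p = 0.018).

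Defa17 (ENSMUSG00000060208, chr8:21655780-21656735) was at 794 (lowest), 1121 (median) and 1493 CPM (highest) in controls. It was at 772, 647, 682, 586 and 1031 CPM in CONV 2, 3, 5, 6 and 7, where all but CONV 7 lay below the lowest control, and at 187 (lowest), 284 (median) and 561 CPM (highest) in FLASH. It is the gene whose FLASH libraries all lay below all CONV libraries, with FLASH 1 just under CONV 6. It fell in FLASH against control (-1.90 ± 0.24 SE, edgeR adjusted p = 1.0e-05) and against CONV (-1.29 ± 0.24 SE, edgeR adjusted p = 0.0018). In CONV against control its change was -0.61 ± 0.25 SE (edgeR adjusted p = 0.089), and it passed in 3 of 30 alternatives, among them the length and GC offset (-0.996, adjusted p = 0.0048). Reads of Defa3 and Defa17 differ only outside the coding sequence, and their separate values rest on 13.2% and 9.40% of stretches.

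Defa5 (ENSMUSG00000074439, chr8:21297439-21298375) was at 703 (lowest), 1014 (median) and 1144 CPM (highest) in controls. CONV 2, 3, 5, 6 and 7 were at 1318, 845, 754, 444 and 753 CPM, with CONV 2 above the controls, CONV 6 below them and the other 3 within their range. FLASH libraries were at 120 (lowest), 332 (median) and 658 CPM (highest), all below the controls. It fell in FLASH against control (-1.59 ± 0.29 SE, edgeR adjusted p = 0.00040) and against CONV (-1.32 ± 0.30 SE, edgeR adjusted p = 0.0063), the last with an adjusted p of 0.052 under the length and GC offset.

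Defa20, Defa21 and Defa22 had the widest spread. Defa20 (ENSMUSG00000095066, chr8:21509258-21510237) was at 1404 (lowest), 1882 (median) and 3527 CPM (highest) in controls. CONV 2, 3, 5, 6 and 7 were at 2226, 1718, 1793, 199 and 582 CPM. FLASH libraries were at 73.0 (lowest), 301 (median) and 818 CPM (highest). CONV 6 and CONV 7 lay inside the FLASH range, and the other CONV libraries lay inside the control range. Defa20 had the largest FLASH change of the 10, -2.45 ± 0.52 SE against control (edgeR adjusted p = 0.0012), and fell against CONV (-1.68 ± 0.52 SE, edgeR adjusted p = 0.031). The call against CONV held in 19 of 30 alternatives. Only 0.31% of the stretches of Defa20 are its own, so its level and change depend on how reads were divided between copies.

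Defa21 (ENSMUSG00000074447, chr8:21025545-21026516) was at 1454 (lowest), 2112 (median) and 3041 CPM (highest) in controls. CONV 2, 3, 5, 6 and 7 were at 2621, 1605, 1530, 400 and 771 CPM, and FLASH libraries at 89.6 (lowest), 419 (median) and 916 CPM (highest). The same CONV libraries, 6 and 7, were low, within the FLASH range. Defa21 fell in FLASH against control (-1.97 ± 0.46 SE, edgeR adjusted p = 0.0024). Against CONV it passed narrowly (-1.35 ± 0.47 SE, edgeR adjusted p = 0.048), and in 9 of 30 alternatives.

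Defa22 (ENSMUSG00000074443, chr8:21162277-21163249) was at 1141 (lowest), 1976 (median) and 2817 CPM (highest) in controls. CONV 2, 3, 5, 6 and 7 were at 2634, 1760, 1658, 371 and 818 CPM, and FLASH libraries at 95.2 (lowest), 437 (median) and 912 CPM (highest). All FLASH libraries lay below all controls, and CONV 6 and CONV 7 again lay within the FLASH range. Defa22 fell in FLASH against control (-1.81 ± 0.45 SE, edgeR adjusted p = 0.0043) and against CONV (-1.40 ± 0.47 SE, edgeR adjusted p = 0.041), the last in 15 of 30 alternatives.

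**Figure D4:**
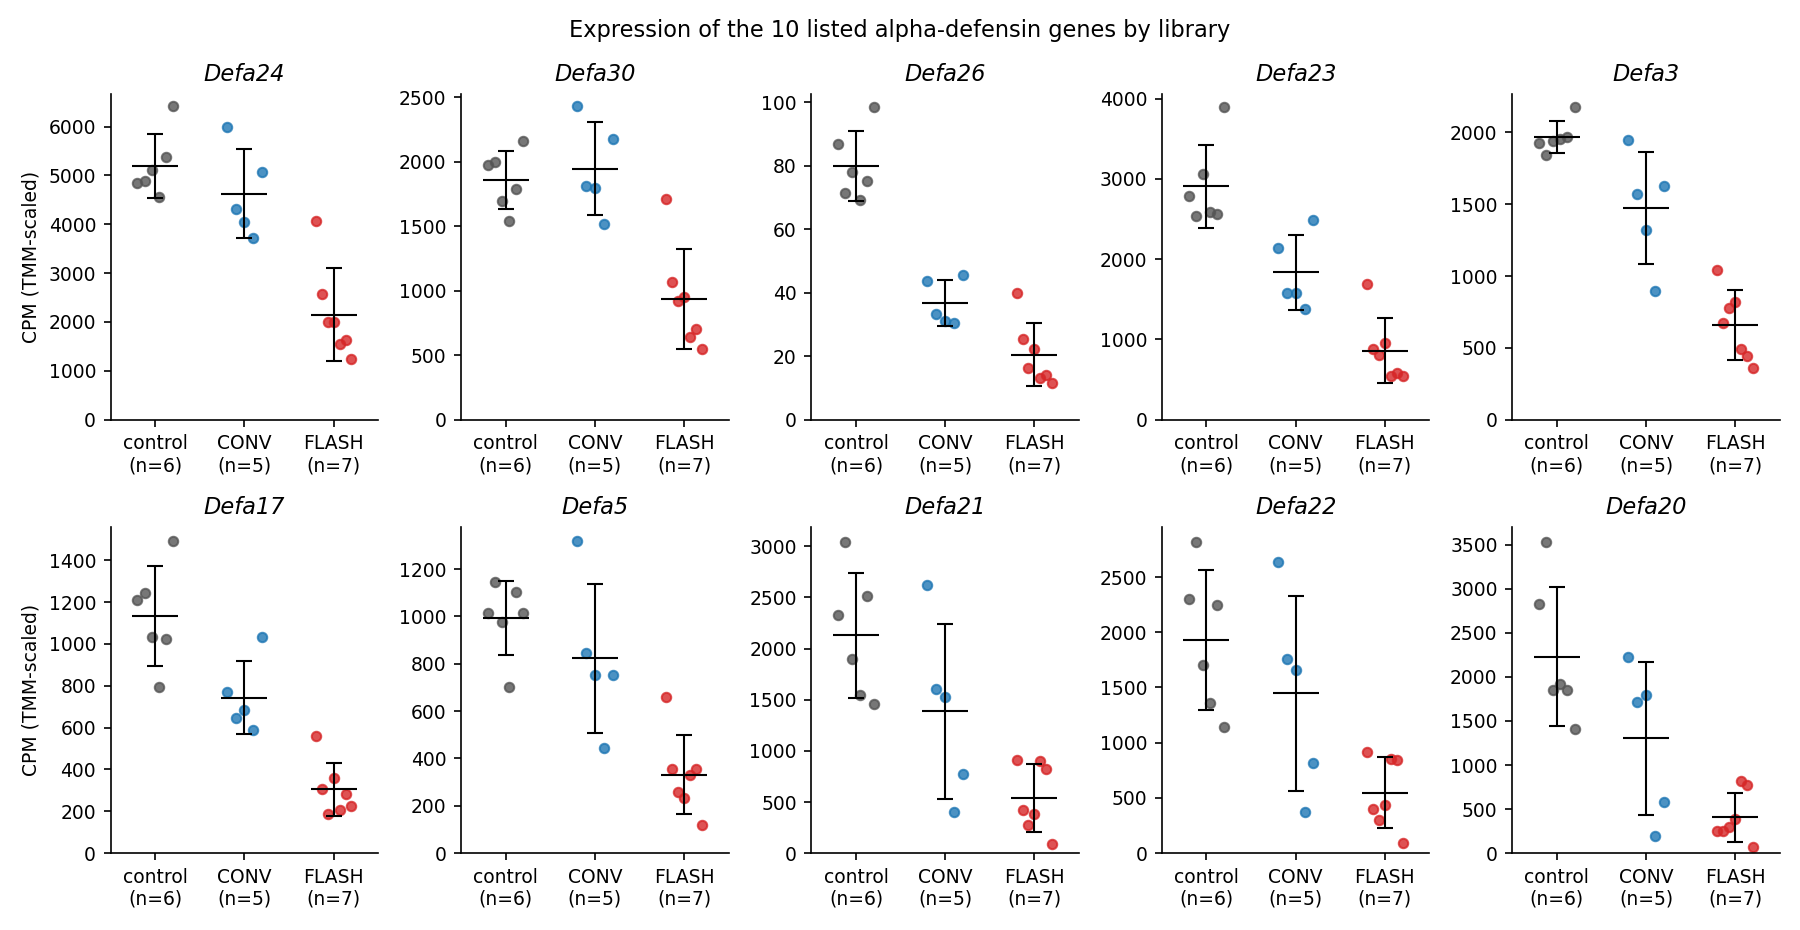
Level in CPM of each of the 10 genes, each point 1 library, with mean and SD in black; axes start at 0 and differ between panels. In Defa20, Defa21 and Defa22 the CONV libraries split, with CONV 6 and CONV 7 at 199 to 818 CPM and the other 3 at 1530 to 2634 CPM.

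Per length and among the 10 listed genes, the order of control levels was led by Defa24 at 12411 ± 1565 CPM per kb (SD, n = 6), followed by Defa23 at 7072 ± 1272 CPM per kb. Defa20 (5243 ± 1857), Defa21 (5093 ± 1461), Defa3 (4801 ± 275), Defa30 (4676 ± 569) and Defa22 (4604 ± 1517 CPM per kb) came next. From Defa23 down to Defa22, each neighbour in this order differed by less than the larger of the pair's SDs, and so did Defa17 (2852 ± 602) and Defa5 (2640 ± 412). Defa26 came last at 215 ± 29.6 CPM per kb. In FLASH, Defa24 (5136 ± 2261 CPM per kb, SD, n = 7) still led and Defa26 (54.8 ± 26.7) was still last, while Defa30 (2349 ± 979) stood second; Defa20 (958 ± 660), the third of the 10 in controls, stood below Defa3, Defa21 and Defa22. The FLASH means of Defa30 and Defa23 (2090 ± 988) differed by less than their SDs. The places of Defa20, Defa17, Defa23, Defa5 and Defa3, with 0.31 to 13.2% of stretches of their own, depend on how reads were divided between copies.

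The make-up of the defensin RNA also varied between libraries of 1 group. The group of Defa3, 17, 23, 24, 30 and 31 held 38.1 to 60.8% of the summed Defa CPM in controls, 42.7 to 70.2% in CONV and 37.2 to 73.8% in FLASH. The group of Defa2, 20, 32 and 33 held 15.1 to 31.0% in controls, 7.50 to 25.7% in CONV and 6.76 to 29.7% in FLASH. Defa21 and 22 held 9.77 to 17.8%, 6.68 to 16.9% and 4.68 to 19.0%. The group of Defa5 and 34 to 37 varied less in share, with 10.4 to 12.3% in controls, 12.4 to 13.3% in CONV and 11.1 to 14.4% in FLASH; its share in every CONV library lay above that in every control.

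The groups of Defa20 and of Defa21 went up and down together. The log2 ratio of the Defa2/20/32/33 sum to the Defa3/17/23/24/30/31 sum was highest in control 2 (-0.29), FLASH 6 (-0.33), FLASH 7 (-0.67) and control 1 (-0.70), and lowest in FLASH 9 (-3.45), CONV 6 (-3.23), FLASH 2 (-2.61) and CONV 7 (-2.58). The ratio of Defa21 and 22 to the same sum was highest in FLASH 6 (-0.97) and lowest in FLASH 9 (-3.98), with CONV 6 (-3.39) next. Libraries at either end thus came from more than 1 group, and the groups overlapped on both ratios. Over the 18 libraries, with group means removed, log2 CPM of Defa21 correlated with Defa22 at r = 0.99 and with Defa20 at r = 0.88, but with Defa24 at r = 0.45. Defa24 correlated with Defa30 at r = 0.97, with Defa26 at r = 0.95 and with Defa20 at r = 0.11. These are descriptions: the points share library depth and, for near-identical genes, reads. Defa21 and Defa22 share stretches of 100 bases with each other and with no other annotated gene, and Defa24 shares none, so the levels of Defa24 and of the Defa21 and Defa22 pair do not rest on shared reads.

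**Figure D5:**
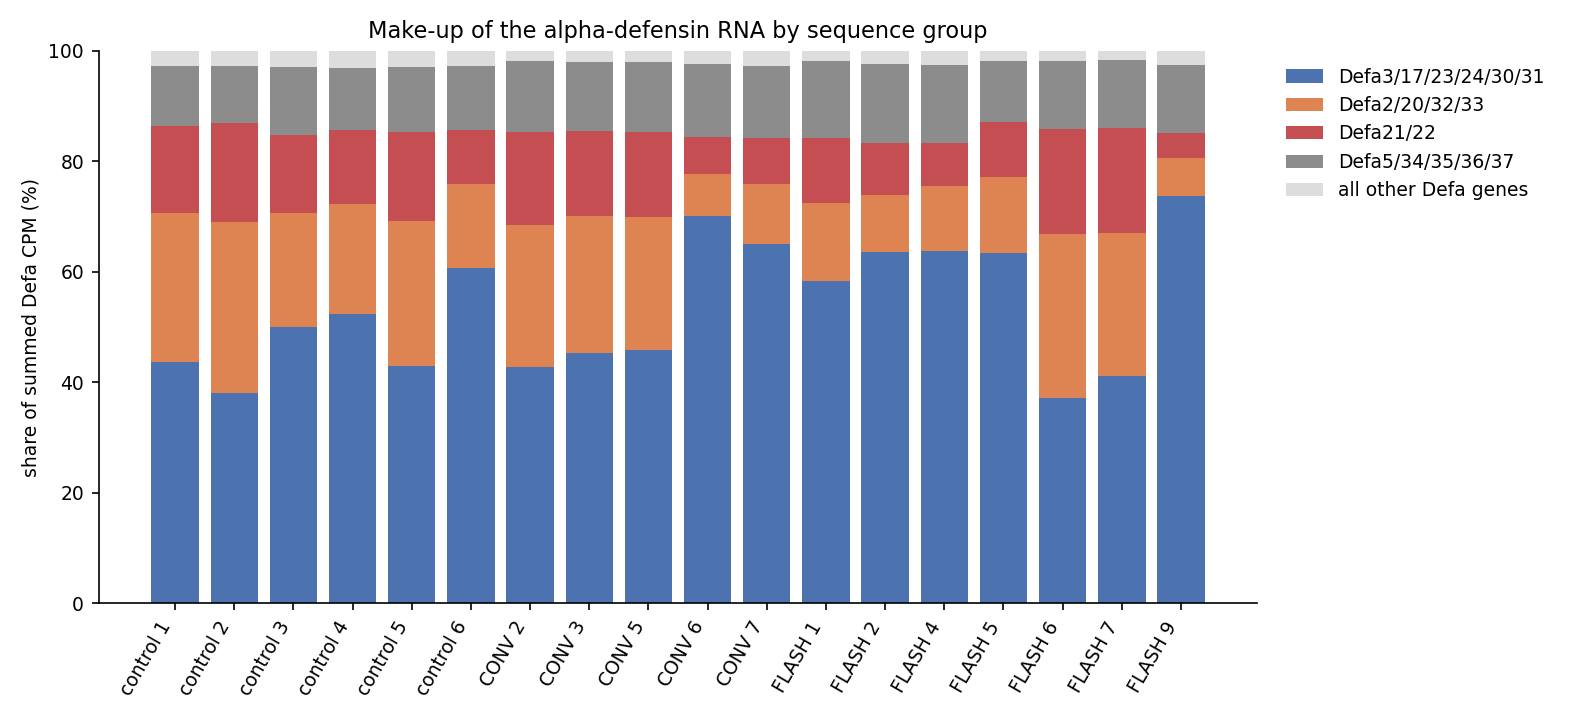
Share of the summed Defa CPM held by the 4 sequence groups and by all other Defa genes, 1 bar per library. FLASH 9, CONV 6 and CONV 7 hold 73.8, 70.2 and 65.0% in the group of Defa3, 17, 23, 24, 30 and 31, and FLASH 6 holds 37.2%.

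Of the other 29 Defa genes, 9 had a mean of at least 5 CPM and 20 lay below it, 6 of them at 0 in every library. Among the 9, 5 fell in FLASH against control, 4 in FLASH against CONV and 2 in CONV against control, and 0 rose. The shares of all tested genes that passed as lower were 21.0, 9.91 and 12.0% in these comparisons. Defa29, which has 89.0% of stretches of its own and lies on the minus strand (chr8:21325887-21327020), fell in all 3 comparisons: CONV against control (-0.76 ± 0.23 SE, edgeR adjusted p = 0.026), FLASH against control (-2.10 ± 0.21 SE, edgeR adjusted p = 1.2e-06) and FLASH against CONV (-1.35 ± 0.22 SE, edgeR adjusted p = 0.00074). Its controls were at 588 to 792 CPM, CONV libraries at 525, 417, 382, 240 and 456 CPM, and FLASH libraries at 88.6 to 256 CPM. The pseudogene Defa-ps6 fell in CONV against control (-1.86 ± 0.49 SE, edgeR adjusted p = 0.013) and in FLASH against control (-2.26 ± 0.45 SE, edgeR adjusted p = 0.00069). Its levels were 7.10 to 18.9 CPM in controls, 1.63 to 4.83 CPM in CONV and 0.56 to 5.88 CPM in FLASH.

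Defa2 fell in FLASH against control (-2.06 ± 0.45 SE, edgeR adjusted p = 0.0016) and against CONV (-1.40 ± 0.46 SE, edgeR adjusted p = 0.038). Its levels were 1874 to 4555 CPM in controls, 525 to 3600 CPM in CONV and 160 to 1523 CPM in FLASH. Defa36 fell in the same 2 comparisons (-1.39 ± 0.23 SE and -1.11 ± 0.24 SE, edgeR adjusted p = 0.00017 and 0.0045), as did Defa34 (-1.41 ± 0.36 SE and -1.56 ± 0.37 SE, edgeR adjusted p = 0.0046 and 0.0075). Stretches of their own make up 0% of Defa2, 5.3% of Defa36 and 25% of Defa34, so these levels too depend on how reads were divided between copies. Defa35 did not pass (-1.23 ± 0.49 SE against control, edgeR adjusted p = 0.055). Defa31, Defa32 and Defa33, with 0 to 0.31% of stretches of their own, were listed at 0 in some libraries and far above 0 in others of the same group (0 to 1585 CPM for Defa33 in controls). Their changes had standard errors of 1.13 to 3.21 on the log2 scale and did not pass.

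The sum was also set against 5 other Paneth cell genes: Lyz1, Mmp7, Ang4 (an antimicrobial ribonuclease), Itln1 (a lectin) and Mptx2 (a pentraxin). The ratio of expected counts was 2.42 to 2.79 in controls (mean 2.58 ± 0.14 SD, n = 6). In CONV 2, 3, 5, 6 and 7 it was 2.78, 2.29, 2.40, 1.96 and 1.97, and in FLASH it was 1.60 to 2.64 (mean 2.17 ± 0.37 SD, n = 7). The groups overlapped. The mean log2 ratio was 0.27 lower in FLASH than in control (exact permutation test, two-sided, p = 0.021, adjusted p = 0.063 over 3 comparisons). The differences of -0.19 between CONV and control (exact permutation p = 0.082, adjusted p = 0.12) and of -0.08 between FLASH and CONV (exact permutation p = 0.59, adjusted p = 0.59) did not pass either. Set against Mmp7 alone, the log2 ratio was lower in both irradiated groups than in control, with differences of -1.06 in CONV (exact permutation adjusted p = 0.0065) and -0.86 in FLASH (exact permutation adjusted p = 0.0035). Set against Lyz1 alone, the most abundant of the 5 in controls, the ratio was 3.75 to 4.53 in controls, 3.11 to 4.30 in CONV and 3.20 to 5.06 in FLASH. The log2 differences were -0.14 in CONV against control, -0.06 in FLASH against control and 0.08 in FLASH against CONV. None of them passed (exact permutation adjusted p = 0.55 in each).

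These 5 genes themselves differed. Lyz1 had means of 6721 CPM in controls (SD 957, n = 6), 5437 CPM in CONV (SD 1280, n = 5) and 2210 CPM in FLASH (SD 814, n = 7). It fell in FLASH against control (-1.60 ± 0.22 SE, edgeR adjusted p = 2.5e-05) and against CONV (-1.30 ± 0.23 SE, edgeR adjusted p = 0.0012), changes close in size to those of the Defa sum. Mmp7, which processes the pro-defensins, was at 264 to 382 CPM in CONV, 173 to 263 CPM in controls and 68.5 to 179 CPM in FLASH. It rose in CONV against control (0.58 ± 0.19 SE, edgeR adjusted p = 0.039; 0.05 and adjusted p = 0.86 with the length and GC offset) and fell in FLASH against control (-0.84 ± 0.18 SE, edgeR adjusted p = 0.0013) and against CONV (-1.42 ± 0.19 SE, edgeR adjusted p = 0.00019). Itln1 and Mptx2 fell in FLASH against control (-1.19 ± 0.20 SE and -2.46 ± 0.32 SE, edgeR adjusted p = 0.00016 and 1.3e-05), whereas Ang4 did not pass (-0.70 ± 0.34 SE, edgeR adjusted p = 0.11).

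The share of all tested genes that passed as higher was 16.7% in FLASH against control, 10.2% in CONV against control and 9.88% in FLASH against CONV. The share that passed as lower was 21.0, 12.0 and 9.91% in the same order, and the counts that follow are to be read beside both. Of 20 genes listed for Paneth granule proteins other than alpha-defensins, 18 were tested. In FLASH against control 8 fell, 5 rose and 5 did not pass (median log2 change -0.72). In FLASH against CONV 5 fell, 0 rose and 13 did not pass (median -0.04), and in CONV against control 1 fell, 5 rose and 12 did not pass (median -0.26). Among the fallen was Habp2, with 10.9 to 38.7 CPM in controls and 2.83 to 8.53 CPM in FLASH (log2 change -2.26 ± 0.35 SE, edgeR adjusted p = 7.9e-05). Reg3b and Reg3g, antimicrobial lectins that enterocytes make as well, rose in FLASH against control (2.30 ± 0.46 SE and 2.12 ± 0.41 SE, edgeR adjusted p = 0.00082 and 0.00058) and in CONV against control (2.13 ± 0.48 SE and 1.92 ± 0.43 SE, edgeR adjusted p = 0.0053 and 0.0048).

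Of 18 genes for the secretory pathway that folds and exports such proteins, 11 fell and 0 rose in FLASH against CONV (median log2 change -0.89). Agr2, a disulphide isomerase (log2 change -1.10 ± 0.23 SE, edgeR adjusted p = 0.0031), and Creld2, an endoplasmic reticulum protein (-1.77 ± 0.25 SE, edgeR adjusted p = 0.00028), were among the fallen. Creld2 rose in CONV against control (1.14 ± 0.26 SE, edgeR adjusted p = 0.0053). Its change in FLASH against control was smaller (-0.63 ± 0.24 SE, edgeR adjusted p = 0.044). In FLASH against control 7 fell and 0 rose (median -0.42), and in CONV against control 5 rose and 1 fell (median 0.32). Of 22 genes for Paneth specification and Wnt regulation, 18 did not pass in FLASH against control; 3 fell, a smaller share than the 21.0% of all tested genes, and 1 rose (median -0.16). Axin2, a Wnt target, fell there (-1.94 ± 0.36 SE, edgeR adjusted p = 0.00038), and Fgfr3, a growth factor receptor, rose by 0.99 ± 0.24 SE (edgeR adjusted p = 0.0030). In CONV against control 6 fell and 0 rose (median -0.43), among them Fzd5 (-0.90 ± 0.27 SE, edgeR adjusted p = 0.023), a Wnt receptor known for its role in Paneth cell maturation. In FLASH against CONV 2 rose and 0 fell.

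Markers of other cell types moved as well, and their part in the defensin values was not tested. Of 10 absorptive enterocyte markers, 7 rose in FLASH against control and 5 in CONV against control; their summed level was 18543 to 41952 CPM in controls, 55293 to 102080 CPM in CONV and 57554 to 100410 CPM in FLASH. Of 10 markers of crypt base stem cells, the neighbours of Paneth cells, 9 fell in FLASH and 7 in CONV against control, from a summed 850 to 1412 CPM to 169 to 259 CPM and 137 to 294 CPM. Much of that sum was Olfm4, with a mean of 762 CPM in controls, where the summed mean was 1135 CPM. Its means were 49.5 CPM in FLASH and 31.2 CPM in CONV. The median log2 change of the 10 was -1.74 in FLASH and -1.14 in CONV against control. In FLASH against CONV 4 of these 10 fell. Of 8 goblet cell markers, 2 fell and 1 rose in FLASH against control, near the 21.0% and 16.7% of all tested genes. There 4 of 9 enteroendocrine markers and 2 of 6 tested tuft cell markers rose.

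Among 10247 genes outside the Defa family with a mean of at least 5 CPM and an established symbol, Lyz1 was most like the Defa sum over the 18 libraries (Pearson r of log2 CPM 0.98, and 0.93 with group means removed). Itln1 followed (0.95 and 0.79), then Bambi (0.92 and 0.75), Lgals1 (0.92 and 0.71), Mgat4c (0.92 and 0.72), Rexo2 (0.90 and 0.56), Tmem106c (0.90 and 0.70) and Dcps (0.90 and 0.45). Mptx2 ranked ninth (0.89 and 0.53), while Mmp7 (0.79 and 0.75) ranked 109 and Ang4 (0.65 and 0.39) ranked 581. Libraries of the same group share their treatment, so the values without group means are the ones that speak to libraries within a group.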

How the data were processed

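Whole jejunum gave stranded mRNA libraries (250 ng of input), read from 1 end over 100 bases, per the labels' protocols. Per the submitters' processing notes, STAR and Salmon on mm10 and edgeR 3.40.2 and limma 3.54.2 were used; versions of the first 2 are not given in the sources used here. The deposited count table holds expected counts, estimated per Ensembl gene and not scaled; they were rounded before tests. The second deposited table holds log2 values normalized by the authors for 19193 genes, 22 of them Defa genes, and was used in 1 alternative.

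Differences were tested by edgeR's quasi-likelihood method (edgeR 4.0.16 in R 4.3.3). All 18 libraries entered 1 fit with robust dispersions, after filtering by filterByExpr and TMM scaling. P-values were adjusted after Benjamini and Hochberg across 16257 genes, and the threshold was 0.05. The 39 Defa genes were replaced by their sum to test the sum in a fit of its own, over 16235 features. A positive log2 change is a higher level in the group named first. Its SE is the absolute change divided by the square root of F. The ratio to other Paneth cell genes was tested by an exact permutation of libraries. On simulated counts, 34.7% of 2-fold and 84.8% of 4-fold changes were recovered in CONV against control (16000 genes). The shares were 40.4% and 88.8% in FLASH against control and 38.4% and 89.8% in FLASH against CONV (16021 genes each). Of the calls, 2.5, 3.79 and 5.26% were false. Only 100 genes were changed at each fold, and the noise was independent between genes and had no trend with length. These rates hold for the simulated counts and are not error rates of the calls in the real data.

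Alternatives were DESeq2 size factors, library totals, TMM without Defa and the 50 most abundant genes, at least 1 count, counts not rounded, DESeq2 1.42.0, limma-voom and limma-trend (limma 3.58.1), only the 2 groups compared, a replicate block, a length and GC offset, leaving out control 6, CONV 6 and FLASH 1, and leaving out each library. The members, lists and tests were chosen with earlier results of these data known. Named were the 10 members, other Defa genes with a mean of at least 5 CPM, Lyz1, Mmp7, Ang4, Itln1, Mptx2, up to 4 genes per list and comparison with the smallest p, of which the text prints a part, and the 8 genes most like the Defa sum. A rule on protein identity of neighbouring genes was not applied, since protein sequences were not used here. No 2 libraries agreed within counting noise; the closest pair, CONV 3 and CONV 5, had a chi-square per degree of freedom of 25.2.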

Additional observations from a re-analysis of the deposited data

Results flagged for a closer look

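Each group of 5 to 7 libraries was searched for a highest or lowest library far from the others (Dixon's test at the 95% level), over 63 combinations of a value and a group; chance alone flags about 1 in 20. In FLASH, library 1 stood high for Defa23, at 1697 CPM with the next at 954 CPM, for the sum of Defa3, 17, 23, 24, 30 and 31, at 9081 CPM with the next at 5541 CPM, and for Lyz1, at 3834 CPM with the next at 2348 CPM. Without FLASH 1 all 10 members still passed in FLASH against control. In controls, library 6 stood high for the sum of Defa3, 17, 23, 24, 30 and 31, at 16144 CPM with the next at 12841 CPM. Control 6 and FLASH 1 are also among the libraries in which short genes were over-represented, and the part of this in their values was not tested. In CONV, library 6 was lowest for Itln1, at 1401 CPM with the next at 2235 CPM. In FLASH, library 5 was highest for Ang4, at 1189 CPM with the next at 599 CPM, while its Defa sum (8294 CPM) lay near the median of its group.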

How the results depend on the processing

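In FLASH against control the Defa sum passed in all 31 alternatives, at log2 changes of -2.04 to -1.51, and all 10 members passed in each of 30. In FLASH against CONV the sum lost its call with the length and GC offset (-0.71, edgeR adjusted p = 0.059). The members called there were 5 with that offset and 6 with only the 2 groups compared. They were 7 with each of limma-voom, limma-trend, at least 1 count and the replicate block. With DESeq2 size factors they were 9, and with the other alternatives on all libraries 10. Leaving out a library gave 6 to 10, with 6 without CONV 2. In CONV against control the sum passed with that offset (-0.88); the members called were 5 with the offset, 3 with library totals, 2 with only the 2 groups compared and 1 to 3 when a library was left out, 3 without FLASH 1. The cause of these moves was not tested. Over the alternatives, all genes called in either direction numbered 4279 to 7931 in FLASH against control. They numbered 1569 to 4064 in FLASH against CONV and 1869 to 6493 in CONV against control. With library totals, 2846 genes passed as lower in CONV against control. Leaving out 1 library gave the sum -0.60 to -0.25, -1.84 to -1.51 and -1.43 to -1.05 in CONV against control, FLASH against control and FLASH against CONV. Adding the 6 genes RefSeq names Defa38 to Defa43, chosen after seeing the data, gave -0.50, -1.75 and -1.25. Against Mmp7 alone the ratio passed in CONV (-1.06) and FLASH (-0.86) against control; between FLASH and CONV it turned to 0.20 against Mmp7 and 0.080 against Lyz1. Leaving out 1 library moved the ratio between -0.26 and -0.14 in CONV against control (adjusted p = 0.029 without CONV 2), -0.32 and -0.20 in FLASH against control (adjusted p = 0.019 without FLASH 6), and -0.13 and -0.0034 in FLASH against CONV.

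Some CONV against control changes that did not pass turned sign. Defa24 was 0.014 without control 6, CONV 6 and FLASH 1. Defa30 was -0.14 with library totals and -0.36 with the offset. Defa35 was -0.025 with library totals, -0.097 with limma-voom, -0.061 with limma-trend and -0.46 with the offset. Defa34 was -0.070 with library totals and -0.49 with the offset. Defa33 was 1.85 with limma-voom and 1.89 with limma-trend. Ang4 was 0.0033 with TMM without Defa, 0.0050 with at least 1 count and 0.11 without the 3 libraries. Leaving out 1 library moved Defa30 between -0.026 and 0.14, Defa35 between -0.19 and 0.43, Defa34 between -0.073 and 0.35, Defa33 between -0.54 and 0.16, Defa32 between -1.45 and 0.047 and Ang4 between -0.13 and 0.14. Defa31 turned to -0.27 with limma-voom in FLASH against control, and Defa-ps6 to 0.17 with the offset in FLASH against CONV.

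Of 13 pairs of same-numbered libraries, 3 had a correlation of deviations over 0.1 (-0.27 to 0.61). The highest was that of control 6 and CONV 6, where short genes were over-represented. Whether equal numbers share a litter or day cannot be told from these values. With a replicate block the sum was -0.41, -1.52 and -1.11 in the 3 comparisons, Defa32 in FLASH against CONV turned to 0.43, and all genes called in FLASH against CONV numbered 1569 in place of 3217. Genes called in CONV against control numbered 3615, and 2277, 2359, 6493, 2171 and 1869 without control 2, control 5, control 6, CONV 2 and CONV 6. Library totals shifted the median log2 change of all genes by -0.21, -0.37 and -0.16 and raised the lower calls from 54.0, 55.7 and 50.1% of calls to 75.8, 82.6 and 75.6%; the offset shifted the first 2 by -0.10 and gave 67.1% lower calls in CONV against control.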

Other observations

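RefSeq gives Defa names to 6 further genes of the locus that carry other symbols in the annotation used: Gm14851 (Defa38), AY761184 (Defa39), Gm15292 (Defa40), Gm15293 (Defa41), Gm7849 (Defa42) and Gm7861 (Defa43). They were looked at after the values were seen. Together they were at 6028 to 7238 CPM in controls, at 4064, 3505, 3114, 2166 and 3889 CPM in CONV 2, 3, 5, 6 and 7, and at 845 to 2063 CPM in FLASH, with no overlap between the 3 groups. Of all tested genes, 4.95% lay wholly lower in CONV than in control. The shares were 6.85% for FLASH below control and 4.45% for FLASH below CONV. How far reads of these 6 genes can be told apart was not examined. In FLASH against control 5 of 6 fell, in FLASH against CONV 4 of 6, and in CONV against control 3 of 6; over all tested genes 21.0, 9.91 and 12.0% passed as lower.

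Gm7861 (chr8:21593375-21594508) was the most abundant of them. Its controls were at 2802 (lowest), 3449 (median) and 4120 CPM (highest), CONV 2, 3, 5, 6 and 7 at 2058, 1592, 1542, 774 and 1582 CPM, and FLASH libraries at 316 (lowest), 522 (median) and 688 CPM (highest). It fell in CONV against control, FLASH against control and FLASH against CONV (log2 changes -1.22 ± 0.22, -2.80 ± 0.21 and -1.57 ± 0.21 SE, edgeR adjusted p = 0.0012, 5.5e-08 and 0.00019). Gm15292 also fell in CONV against control (-1.40 ± 0.31 SE, edgeR adjusted p = 0.0047), as did AY761184 (-0.80 ± 0.27 SE, edgeR adjusted p = 0.043). Gm7849 was listed at 0 in some libraries of 2 groups and did not pass in any comparison.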
